A study of Arabidopsis with 8 samples.

Results

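The genes described here are 10 transcription factors that set up and maintain the stem cell region and the root cap of the Arabidopsis root: PLT1, PLT2, PLT3, WOX5, SHR, SCR, JKD, SMB, BRN1 and FEZ. They were picked by name for their known roles, with earlier results of these data known but with no threshold on a measured value. Matched by locus identifier, all 10 were found among the 25404 genes that the files list. RNA was sequenced from roots and from shoot parts of seedlings 5 days old, of the wild type Col-0 and of OE-SAUR41, a line that overexpresses SAUR41. Each of the 4 combinations of genotype and organ had 2 libraries, and OE-SAUR41 is called the overexpressor from here on. The sources used here do not give the promoter that drives SAUR41, the number of independent lines or the number of seedlings per library.

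In the root tip a few rarely dividing cells, the quiescent centre, are surrounded by stem cells for each tissue. The PLETHORA proteins (PLT), of the AP2 class, form a gradient along the root tip that maintains stem cells and dividing cells, and the homeobox factor WOX5 acts from the quiescent centre to hold back differentiation of the columella stem cells of the cap. SHR, a GRAS protein made in the stele, moves into the neighbouring cell layer, where it activates the GRAS gene SCR, while the zinc finger protein JKD helps to keep SHR there. The NAC factors FEZ and SMB act against each other in the root cap: FEZ promotes the divisions of cap stem cells, SMB ends them and starts cap maturation, and BRN1 acts with SMB in that maturation. SAUR41, a small auxin-regulated protein, is itself known from the quiescent centre and the initials of cortex and endodermis. SHR and SCR also have a role above ground, in the endodermis of hypocotyl and stem, where their loss abolishes shoot gravitropism.

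Levels are FPKM, fragments per kilobase of transcript scaled to the mapped fragments of the library, so genes can be compared with each other. SAUR41 stood between 4.64 and 8.29 FPKM in the Col-0 libraries of both tissues and between 4670 and 10675 FPKM in the overexpressor libraries. Summed levels were 605751 to 774506 FPKM per library, and read depth is unknown. The 9 green shoot markers summed to 96.1 to 139 FPKM in roots and 30320 to 56520 FPKM in shoots. The 8 root markers summed to 5835 to 6755 FPKM in roots and 509 to 830 FPKM in shoots. Nearly all of that sum was PYK10, with 5602 to 6496 FPKM in roots and 500 to 821 FPKM in shoots. All 8 root markers were listed in every root library, and of the green shoot markers FAMA was listed in none of them. The Col-0 shoot pair was the least alike: 29.1% of 19863 tested genes differed at least 2-fold between its libraries. For the remaining pairs this share was 1.27% to 2.04%. Across genes, which are not replicates, the difference within the Col-0 shoot pair rose with gene span (Spearman's rho 0.54). The root pairs also followed span, less strongly and with opposite signs (rho -0.31 in Col-0 and 0.28 in the overexpressor). In overexpressor shoots rho was -0.01. Whether gene span had a part in the comparison of genotypes in roots was not tested. In whole roots and shoot parts, fewer cells of a type and less RNA per cell cannot be told apart.

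All 10 genes were listed in all 4 root libraries, in 2 tiers of level. SHR, PLT3, SCR and JKD formed the upper tier, with means of 24.5, 22.2, 21.1 and 20.4 FPKM over the 4 root libraries (SD 2.43, 2.03, 2.86 and 1.58, n = 4). BRN1, PLT1, SMB, PLT2, WOX5 and FEZ followed with 6.70, 6.14, 5.19, 4.57, 2.79 and 2.19 FPKM (SD 0.692, 0.440, 0.912, 0.274, 0.514 and 0.549, n = 4). Along this order the library ranges of neighbouring genes overlapped except at 2 steps, from JKD down to BRN1 and from PLT2 down to WOX5. The upper tier lay above 75.5% to 79.2% of the 24767 genes listed in a root library, and FEZ above 31.6% of them. None of the 10 genes shares its annotated locus with another gene in the files.

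**Figure D1:**
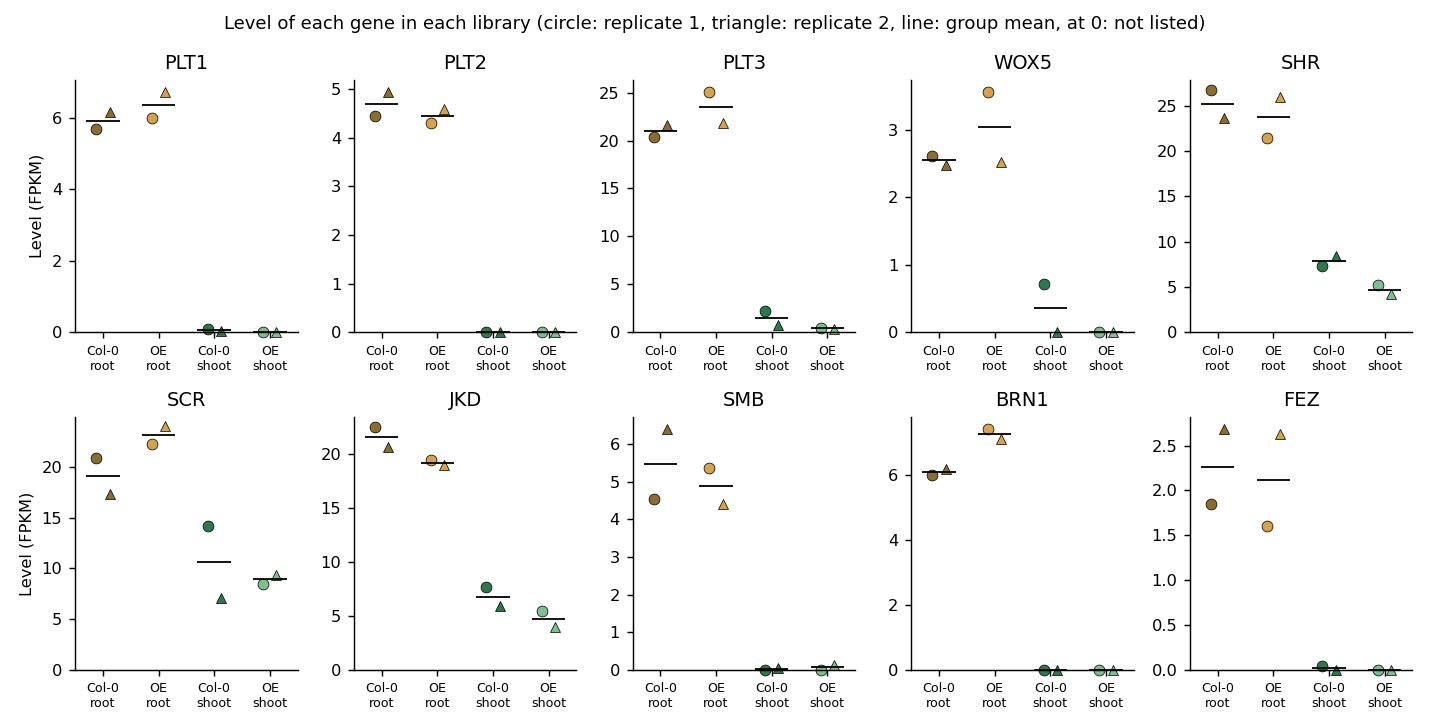
FPKM of the 10 regulators in each of the 8 libraries, 1 panel per gene with its own linear axis from 0; circles are replicate 1, triangles replicate 2, lines group means, and points at 0 were not listed in the file. PLT2 and BRN1 are at 0 in all shoot libraries, while SCR keeps 7.11 to 14.1 FPKM there.

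The PLETHORA genes differed in how far they reached into the shoot. PLT1 (AT3G20840, chromosome 3, 7300674 to 7303693, TAIR10) stood at 5.67 and 6.16 FPKM in wild-type roots, 6.01 and 6.73 FPKM in overexpressor roots, 0.108 and 0.0318 FPKM in wild-type shoots, and was not listed in either overexpressor shoot library. PLT2 (AT1G51190, chromosome 1, 18977283 to 18980618), its closest partner in the stem cell region, stood at 4.45 and 4.94 FPKM in wild-type roots and 4.30 and 4.59 FPKM in overexpressor roots, and no shoot library listed it. For both genes every root library lay far above every shoot library, and the root groups overlapped. PLT3 (AT5G10510, chromosome 5, 3315528 to 3320202), also named AIL6 and active in shoot meristems too, was the most abundant PLETHORA gene of the set in roots, with 20.3 and 21.6 FPKM in the wild type and 25.1 and 21.8 FPKM in the overexpressor. Its shoot levels were 2.26 and 0.792 FPKM for Col-0 and 0.488 and 0.349 FPKM for the overexpressor. Both overexpressor libraries thus lay above both Col-0 libraries in roots and below both in shoots, and the 2 Col-0 shoot libraries were further apart in FPKM than the 2 group means in shoots. Within a root library PLT3 stood 4.37 to 5.83 times as high as PLT2, and PLT1 1.25 to 1.46 times as high.

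WOX5 (AT3G11260, chromosome 3, 3527574 to 3528433) was low in every library. It stood at 2.61 and 2.48 FPKM in wild-type roots and 3.56 and 2.52 FPKM in overexpressor roots. Of the shoot libraries only Col-0 shoot 1 listed it, at 0.722 FPKM. The root groups overlapped, and overexpressor root 1 alone stood above 3 FPKM.

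The 3 genes that pattern the ground tissue were present in both organs. SHR (AT4G37650, chromosome 4, 17691785 to 17693760) stood at 26.8 and 23.6 FPKM in wild-type roots, 21.4 and 26.0 FPKM in overexpressor roots, 7.31 and 8.48 FPKM in wild-type shoots and 5.18 and 4.20 FPKM in overexpressor shoots. SCR (AT3G54220, chromosome 3, 20070157 to 20072780) stood at 20.9 and 17.3 FPKM in wild-type roots, 22.3 and 24.1 FPKM in overexpressor roots, 14.1 and 7.11 FPKM in wild-type shoots and 8.48 and 9.36 FPKM in overexpressor shoots. JKD (AT5G03150, chromosome 5, 745643 to 749007) stood at 22.5 and 20.6 FPKM in wild-type roots, 19.4 and 18.9 FPKM in overexpressor roots, 7.70 and 5.85 FPKM in wild-type shoots and 5.46 and 3.96 FPKM in overexpressor shoots. Every root library lay above every shoot library for each of these genes. SCR in Col-0 shoot 1 came closest to the roots, and Col-0 shoot 2 held the lowest SCR value of all libraries. SHR and JKD were lower in both overexpressor shoot libraries than in both Col-0 shoot libraries.

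The NAC genes of the root cap were near or at 0 in shoots. SMB (AT1G79580, chromosome 1, 29940849 to 29943602) stood at 4.56 and 6.41 FPKM in wild-type roots and 5.36 and 4.42 FPKM in overexpressor roots, with 0.0487 FPKM in Col-0 shoot 2, 0.128 FPKM in overexpressor shoot 2 and no listing in the other shoot libraries. BRN1 (AT1G33280, chromosome 1, 12072740 to 12073839) stood at 6.03 and 6.19 FPKM in wild-type roots and 7.43 and 7.14 FPKM in overexpressor roots, and no shoot library listed it. FEZ (AT1G26870, chromosome 1, 9312855 to 9314983) stood at 1.85 and 2.68 FPKM in wild-type roots and 1.60 and 2.63 FPKM in overexpressor roots, with 0.0403 FPKM in Col-0 shoot 1 and no listing elsewhere in shoots. The root groups of SMB and FEZ overlapped, whereas both overexpressor root libraries exceeded both Col-0 root libraries for BRN1. FEZ, the factor of cap stem cell division, stood at 0.298 to 0.594 of the level of its opponent SMB within a root library, and SMB at 0.620 to 1.03 of BRN1. The lowest and the highest FEZ to SMB ratio were both in overexpressor roots.

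The next comparison was that of roots with shoots within each genotype. Genes that reached 1 FPKM in 2 or more libraries were tested with limma on log2(FPKM + 1), where a fold change understates that of low genes, and those with a p under 0.05 after Benjamini-Hochberg adjustment over all genes are named as called. All 10 regulators were called higher in roots in Col-0 and in the overexpressor, though SCR turned sign with TMM scaling. Of all genes, 52.7% were called higher and 13.2% lower in wild-type roots, 65.9% in either direction, so a call by itself was the common case. In overexpressor roots 66.0% were called higher and 11.8% lower, 77.8% in either direction. Both root libraries lay above both shoot libraries for all 10 regulators in each genotype, beside 67.5% of all genes in Col-0 and 76.5% in the overexpressor, while 16.4% lay below in either genotype. However, 6 of the 10 regulators were under 1 FPKM in every shoot library and entered the test through their root values alone, so their calls were largely fixed by that filter and nothing is read from them. PLT3 reached 1 FPKM in only 1 shoot library, so it too passed the filter through its root values and nothing is read from its call. SHR, SCR and JKD reached 1 FPKM in all 4. The median difference of all genes was 0.91 in Col-0 and 1.22 in the overexpressor on the log2 scale, and the values below are therefore also given relative to it.

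Of SHR, SCR and JKD, SCR lay at the median of all genes and the others above it. PLT3 passed the filter through its root values, so its differences are given without p. PLT3 had log2 differences of 3.18 in Col-0 (SE 0.34) and 4.11 in the overexpressor (SE 0.34), which lay 2.27 and 2.89 above the median of all genes. Its mean shoot level was 7.27% of the root level in Col-0 and 1.78% in the overexpressor. SHR had log2 differences of 1.56 and 2.12 (limma adjusted p = 8.24e-04 and 1.68e-04), 0.64 and 0.90 above the median, and JKD 1.55 and 1.83 (limma adjusted p = 1.26e-03 and 4.95e-04), 0.63 and 0.62 above it. SCR had 0.85 in Col-0 (SE 0.31, limma adjusted p = 0.0410) and 1.29 in the overexpressor (SE 0.31, limma adjusted p = 6.70e-03), values that differed from the median of all genes by -0.06 and 0.07. The other 6 genes were under 1 FPKM in every shoot library, so neither fold nor p is given for them, and they are not ranked against PLT3. PLT2 and BRN1, which no shoot library listed, stood at 0% of their root level in shoots.

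Some of the 3 scalings tried ended the calls of the ground tissue genes. Of all called genes, 80.0% were higher in wild-type roots with the values as deposited, 56.6% with quantile normalization and 48.6% with TMM scaling. In the overexpressor these shares were 84.8%, 58.7% and 53.0%. The other 7 regulators stayed called, which was close to fixed beforehand, since all 7 entered the test through their root values. Of all genes, 28.4% and 32.5% were called higher with quantile normalization in Col-0 and the overexpressor, and 20.6% and 28.6% with TMM scaling. SCR was not called with quantile normalization (log2 difference 0.11, limma adjusted p = 0.657 in Col-0; 0.28, limma adjusted p = 0.246 in the overexpressor), and with TMM scaling its sign turned (-0.11, limma adjusted p = 0.695; -0.06, limma adjusted p = 0.808). SHR and JKD were called with quantile normalization in both genotypes. With TMM scaling they were positive but not called, at 0.58 and 0.59 in Col-0 (limma adjusted p = 0.192 and 0.0810) and at 0.82 and 0.54 in the overexpressor (limma adjusted p = 0.0651 and 0.0840). The call of SCR in Col-0 was also lost with the 4 Col-0 libraries alone (limma adjusted p = 0.134) and without any 1 library other than Col-0 shoot 1 (limma adjusted p from 0.0706 to 0.182); without Col-0 shoot 2 its log2 difference was 0.40.

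**Figure D2:**
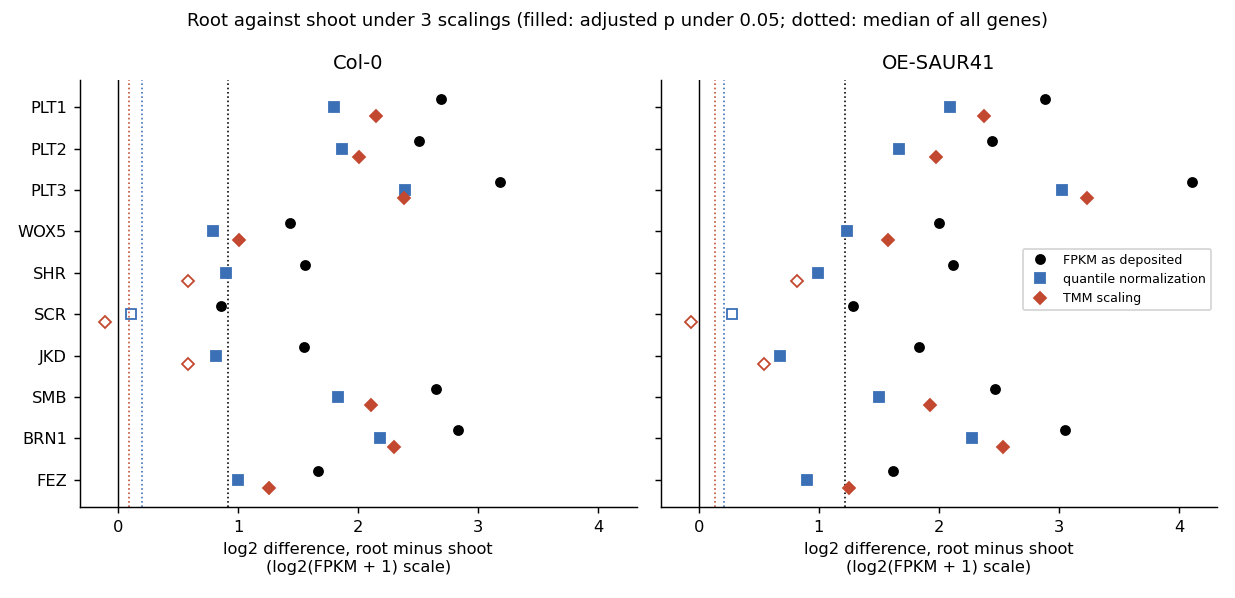
Log2 difference between root and shoot on the log2(FPKM + 1) scale for each regulator, in Col-0 (left) and the overexpressor (right), under 3 scalings; filled symbols passed limma's adjusted p under 0.05 and dotted lines are the medians of all genes under the scaling of the same colour. SCR lies within about 0.20 of the median of all genes and turns sign with TMM scaling, while PLT3 lies 2.19 or more above it. PLT1, PLT2, PLT3, WOX5, SMB, BRN1 and FEZ entered the test through their root values.

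The shoot levels of SHR, SCR and JKD were set beside those of root markers. These were chosen as root genes, so their low shares are no reference for all genes. The median log2 difference of all genes, root minus shoot, was 0.91 in Col-0 and 1.22 in the overexpressor. SCR differed from that median by -0.06 and 0.07. The mean shoot level of SHR was 31.3% of the root level in Col-0 and 19.8% in the overexpressor, that of SCR 55.6% and 38.5%, and that of JKD 31.4% and 24.6%. For the 8 root markers this share ran from 0% (RHD6, a root hair factor) to 9.92% (PYK10, a root beta-glucosidase) in Col-0 and from 0% (EXPA7, a root hair expansin) to 13.7% (PYK10) in the overexpressor. CASP1, a protein of the Casparian strip in the root endodermis, stood at 4.22% and 4.88%. PYK10 and CASP1 each share their locus with another gene, so their values are uncertain. Whether the shoot part itself expresses these markers was not tested.

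Ratios between the ground tissue genes were chosen for a test after the values were seen. SCR stood at 0.732 to 1.04 times the level of SHR in the 4 root libraries. In the shoot libraries the ratio was 1.93 in Col-0 shoot 1, 0.838 in Col-0 shoot 2, and 1.64 and 2.23 in the overexpressor. A ratio within a library does not depend on a scaling factor. The organs overlapped through Col-0 shoot 2. A two-sided exact permutation test of 4 root against 4 shoot libraries, with the genotypes pooled as if alike, gave p = 0.0857. Adjusted over the 2 ratios tested it was 0.171, and the smallest p that the permutation test allows is 0.0286. JKD stood at 0.727 to 0.906 times SHR in roots and 0.690 to 1.05 times in shoots (exact permutation p = 0.429, also 0.429 adjusted).

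The main question of the study's design was what overexpression of SAUR41 changed. In roots no regulator was called, none had an unadjusted limma p under 0.05, and the smallest was 0.336 for BRN1. Of all genes, 0.00503% were called in either direction, a single gene, and 340 of 19863 had an unadjusted p under 0.05. Log2 fold changes, overexpressor minus Col-0, ran from -0.16 for JKD (SE 0.24) to 0.27 for SCR (SE 0.31), with a median over the 10 genes of 0.01 beside -0.03 for all genes. BRN1 had 0.22 (SE 0.21), WOX5 0.18 (SE 0.29), PLT3 0.15 (SE 0.34) and PLT1 0.09 (SE 0.22). PLT2 had -0.06 (SE 0.20), FEZ -0.08 (SE 0.23), SHR -0.09 (SE 0.23) and SMB -0.13 (SE 0.24).

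Each log2 fold change in roots had a 95% interval on the log2(FPKM + 1) scale, where fold changes of low genes are understated. The spread may be technical, since no source says that replicates were grown separately. The 95% intervals of the 10 genes reached from -0.73 at the lowest, for JKD, to 0.99 at the highest, for SCR. The spread behind these intervals is shared with the Col-0 shoot pair. With the 4 root libraries alone the bounds were -0.67 and 0.70, and again no regulator was called. The intervals hold for each gene on its own and show neither a change nor its absence.

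Both overexpressor root libraries lay above both Col-0 root libraries for 3 of the 10 genes, PLT3, SCR and BRN1, and below them for 1, JKD. Among all tested genes 11.5% lay above and 19.6% below in this way. PLT3 in overexpressor root 2 exceeded Col-0 root 2 by little, with 21.8 against 21.6 FPKM. The groups of BRN1 had means of 6.11 ± 0.115 FPKM for the wild type and 7.29 ± 0.208 FPKM for the overexpressor (SD, 2 libraries each).

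**Figure D3:**
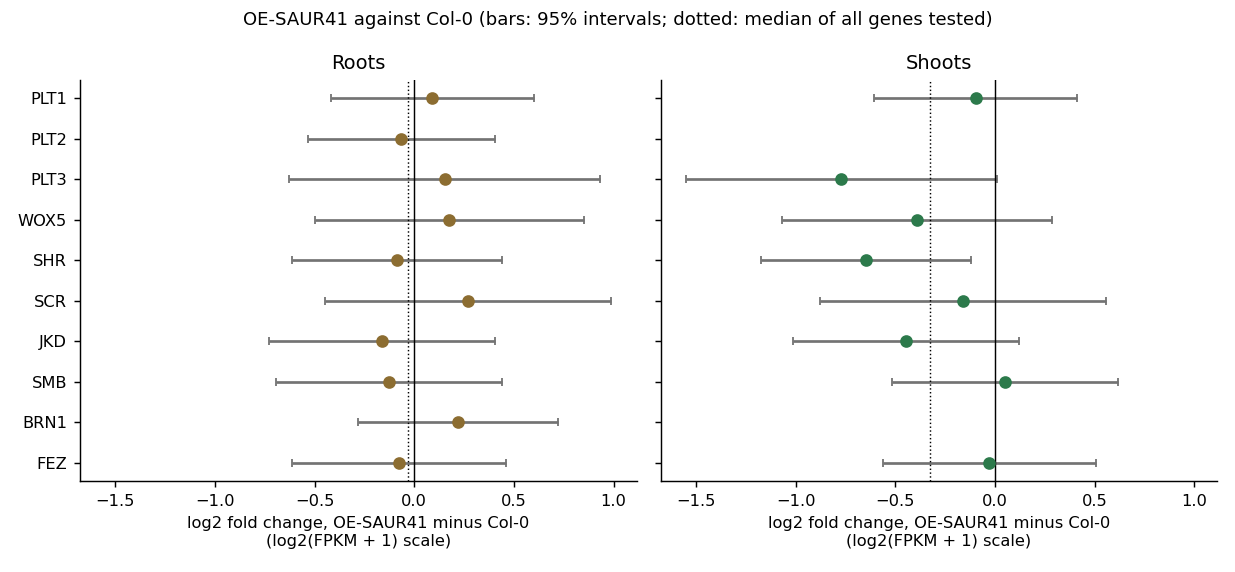
Log2 fold change of the overexpressor against Col-0 on the log2(FPKM + 1) scale in roots (left) and shoots (right), with 95% intervals from limma; dotted lines are the median of all genes, and PLT2 and BRN1, which no shoot library listed, have no shoot value. In roots every interval spans 0, from -0.73 at the lowest to 0.99 at the highest bound.

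In shoots only SHR, SCR and JKD reached the filter with the shoot libraries alone, and the other 7 regulators were in the test through root values. None of the 10 was called, beside 0.0201% of all genes called in either direction, 0.0101% higher and 0.0101% lower. SHR alone had an unadjusted limma p under 0.05 (0.0226), as did 2790 of all genes; its log2 fold change was -0.65, with SE 0.23 (limma adjusted p = 0.307). It was -0.16 with quantile normalization (limma adjusted p = 0.837) and -0.29 with TMM scaling (limma adjusted p = 0.690), and passed an unadjusted 0.05 in neither. The median of all genes was itself -0.32, so that SHR lay 0.32 below it. PLT3 had -0.77 (SE 0.34, limma adjusted p = 0.357; with TMM scaling -0.68 and 0.286, with an unadjusted p under 0.05) and JKD -0.45 (SE 0.24, limma adjusted p = 0.409). SCR had -0.16 (SE 0.31, limma adjusted p = 0.793), and this value turned to 0.17 with quantile normalization and 0.25 with TMM scaling. PLT1, PLT3, SHR and JKD were lower in both overexpressor shoot libraries than in both Col-0 shoot libraries, 4 of 10 genes beside 32.5% of all tested genes, and none was higher in both, beside 7.26%. PLT1 was not above 0.108 FPKM in any of them.

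The differences in shoots depended on which library of the Col-0 shoot pair was kept. Col-0 shoot 1 stood apart from the other shoot libraries. Its TMM scaling factor was 0.998, beside 0.574 in Col-0 shoot 2 and 0.5546 and 0.5625 in the overexpressor. Its green shoot markers summed to 30320 FPKM, beside 56520 in Col-0 shoot 2 and 49940 and 49150 in the overexpressor. The cause was not tested. With 1 of the Col-0 shoot pair left out, the lone library is assumed to vary like the other groups, which supply the spread. Log2 fold changes alone are therefore given for these fits. Without Col-0 shoot 2 the median of all genes was -0.58. PLT3 then had -1.20, SHR -0.55, SCR -0.61, JKD -0.62 and WOX5 -0.78. For WOX5 this rests on the single value of 0.722 FPKM against libraries that did not list it. Without Col-0 shoot 1 SHR had -0.74, PLT3 -0.34 and JKD -0.28, while SCR stood at 0.29 and the median of all genes at -0.03. WOX5 was then listed in no shoot library. The difference between the tissues in the effect of overexpression was not called for any regulator, nor for any gene. No regulator had an unadjusted limma p under 0.05 for it, against 948 genes, and the smallest was 0.0896 for PLT3.

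The other genes of the same pathway were taken from lists of root stem cell and root cap genes. Of 30 further stem cell and patterning genes, 26 were tested and none was called between the genotypes in roots; 14 had a positive and 12 a negative log2 fold change, with a median of 0.03. BBM (AT5G17430), the nearest relative of the PLETHORA genes in the root tip, stood at 4.57 and 5.03 FPKM in wild-type roots and 4.92 and 5.51 FPKM in overexpressor roots, close to PLT1 and PLT2. BBM was picked out as their relative, after its values were seen. The largest difference of the list was that of AT5G48940, a receptor kinase gene that the files name RCH1, with 16.4 and 16.3 FPKM in wild-type roots and 21.8 and 21.0 FPKM in overexpressor roots (log2 fold change 0.36, SE 0.27). RGF1, a peptide that promotes root meristem growth, went the other way (-0.35, SE 0.36). The related receptor kinase gene AT3G24240, named RCH2 in the files and picked out after its values were seen, stood at 33.9 and 34.2 FPKM in wild-type roots and 42.0 and 45.2 FPKM in overexpressor roots.

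None of the 12 other root cap genes was called between the genotypes in roots. Their median log2 fold change was 0.42, with 10 positive and 2 negative values (7 of 12 positive without overexpressor root 1 and 8 of 12 without Col-0 root 1), while SMB, BRN1 and FEZ had -0.13, 0.22 and -0.08. BRN2, picked out as the sister gene of BRN1 after its values were seen, stood at 3.71 and 3.10 FPKM in wild-type roots and 3.25 and 3.03 FPKM in overexpressor roots. The ribonuclease gene RNS3 stood at 12.8 and 21.9 FPKM in wild-type roots and 33.4 and 28.2 FPKM in overexpressor roots (log2 fold change 0.84, SE 0.51), and AT4G18425 at 9.05 and 10.7 against 19.9 and 14.4 FPKM (0.72, SE 0.37). Col-0 root 1 was the lowest of the 4 libraries for both genes and overexpressor root 1 the highest. The summed level of the list was 130 and 182 FPKM in wild-type roots and 243 and 184 FPKM in overexpressor roots, and its median was 0.13 without Col-0 root 1, 0.16 without overexpressor root 1 and 0.72 without Col-0 root 2. Several genes of this list, RNS3 and the metacaspase gene MC9 among them, are also known from the death of xylem cells. The xylem factor VND7 stood at 1.31 and 1.86 FPKM in wild-type roots and 2.34 and 2.17 FPKM in overexpressor roots. SUC2, the vascular marker with the largest difference, stood at 18.1 and 14.4 FPKM in wild-type and 20.7 and 21.5 FPKM in overexpressor roots. For both genes both overexpressor libraries lay above both of Col-0, as for 11.5% of all tested genes. TMO5, another vascular factor, went the other way, with 54.7 and 47.1 FPKM in wild-type and 44.3 and 40.8 FPKM in overexpressor roots. Of the 7 vascular markers 3 were positive and 4 negative, and the part of xylem cells in the result was not tested.

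**Figure D4:**
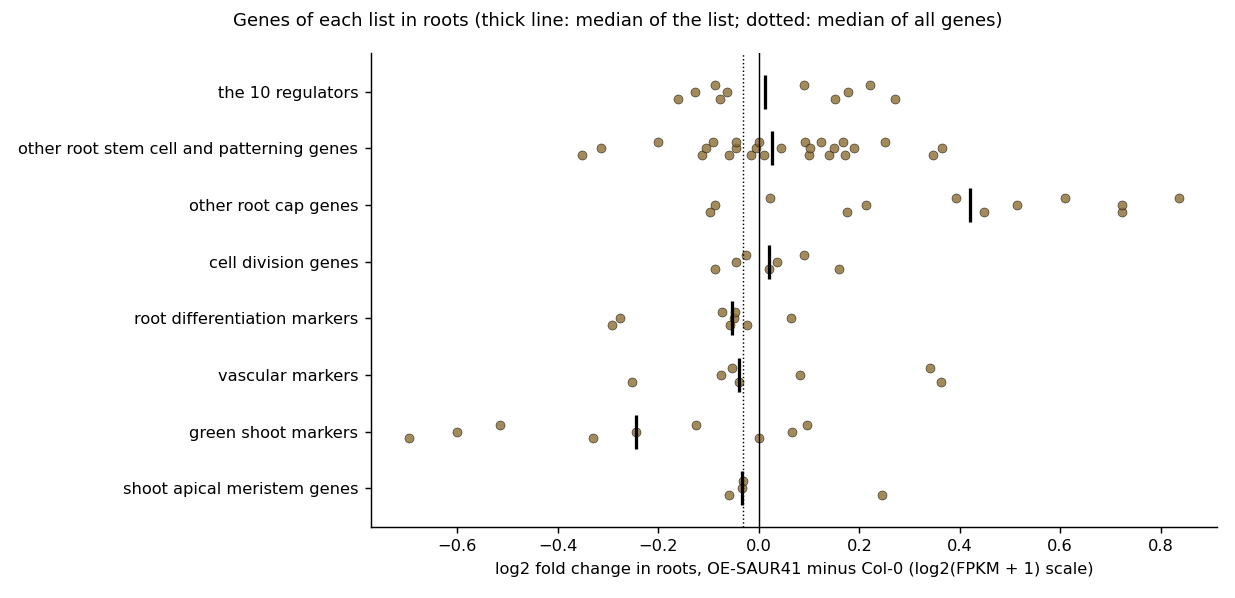
Log2 fold change of the overexpressor against Col-0 in roots for each tested gene of 8 lists; thick lines are list medians and the dotted line is the median of all genes (-0.03). The median of the 10 regulators (0.01) lies beside it, and that of the 12 other root cap genes at 0.42.

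No marker of other cells was called between the genotypes in roots. The 7 cell division genes had a median log2 fold change of 0.02, the 8 root differentiation markers -0.05 and the 7 vascular markers -0.04, with no call. The 9 green shoot markers had -0.24, and their summed level was 139 and 124 FPKM in wild-type roots and 96.1 and 118 FPKM in overexpressor roots. Between the organs, 18 of the 26 tested stem cell and patterning genes were called in Col-0, 16 higher and 2 lower in roots, and 22 in the overexpressor, 21 higher and 1 lower. All 12 root cap genes were called higher in roots in both genotypes. Of all genes 65.9% and 77.8% were called in either direction and 52.7% and 66.0% higher, so these counts are not read as particular to the lists. Of 4 tested shoot meristem genes, STM was called lower in roots in both genotypes (-2.20 in Col-0 and -3.07 in the overexpressor), and CRN and CLV1 were called higher in overexpressor roots (1.8 and 0.93, limma adjusted p = 4.50e-03 and 0.0187). In Col-0 they had 0.66 and 0.12 and were not called.

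Genes with the profile most like that of a regulator were sought for the 7 whose root mean reached 5 FPKM. The measure was the root mean square difference over the 8 libraries on the log2(FPKM + 1) scale, after centring each gene on its mean. For PLT3 these were ABCG14 (AT1G31770), at 0.10, and RFS1 (AT1G55740), at 0.11. For PLT1 they were EXO70C2 (AT5G13990) and FUT5 (AT2G15370), for BRN1 AT2G16230 and PEP7 (AT5G09978), and for SMB AT1G07550 and MRH6 (AT2G03720), all between 0.06 and 0.10. SHR was nearest to AT4G31290 and AT3G12760, SCR to PDIL1-2 (AT1G77510) and AT4G02880, and JKD to AT1G15420 and ARL2 (AT2G18390). Within a difference of 0.15, SCR had 114 other genes, JKD 100, PLT1 45, BRN1 42, SMB 18, SHR 10 and PLT3 3. The measure takes in the size of the difference between the organs, so a gene near the median of all genes, like SCR, can have many neighbours. For BRN1, PLT1 and SMB, near or at 0 in shoots, it mostly matches genes of similar root level. The counts are not read as shared regulation.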

How the data were processed

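RNA-seq values were used as the authors deposited them, as FPKM with 1 file per library per the file headers, on TAIR10 per the submitters' processing notes. Aligner, quantifier and strandedness: not given in the sources used here. Files hold no 0, and an unlisted gene was taken as 0. Low values did not fall on clean steps (2.32% to 11.7% of ratios in the densest window), so reads were not recovered and no counting error can be given. As failed estimates, 3 genes were left out, unlisted in 1 library of a group and over 100 FPKM in the other. The remaining 19863 genes that reached 1 FPKM in 2 or more libraries entered 1 limma fit of 4 group means on log2(FPKM + 1) (eBayes with trend; limma 3.58.1, R 4.3.3; 4 residual and 3.53 prior degrees of freedom). Fits with fewer libraries used the filter on those. TMM factors were computed without count weights. With 2 libraries a group, the smallest p of an exact permutation test is 0.333. No source says that replicates were grown separately, so the spread behind the p-values may be technical. The genes and lists were chosen with earlier results of these data known. All 10 regulators are named; from other lists, up to 4 called genes with the largest change or, with none called, the 2 largest, of which the few that bear on the regulators are printed; BBM, BRN2 in roots, RCH2 in roots, TMO5 and MC9 fall outside this rule and were chosen after their values were seen. The fit was tested on simulated data. Gene names are those of the files or of RefSeq's TAIR10.1 table. Tables were made with pandas 2.3.3 and numpy 2.4.6 in Python 3.11.15, plots with matplotlib 3.10.9.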

Additional observations from a re-analysis of the deposited data

Results flagged for a closer look

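PLT3 is the regulator whose OE-SAUR41 libraries all stood on opposite sides of Col-0 in the 2 tissues, above both Col-0 libraries in roots and below both in shoots. Of all tested genes, 11.5% lay above in roots and 32.5% below in shoots, each tissue taken alone. The share of all genes that did both was not computed. The difference between the tissues was 0.92 on the log2 scale (SE 0.47, 95% interval -0.18 to 2.03). It was tested and did not pass (limma adjusted p = 0.807, unadjusted p = 0.0896), and the median of all genes for the same difference was 0.30. The value was 0.49 without Col-0 shoot 1, where the median of all genes was -0.0001. It was 1.35 without Col-0 shoot 2, where that median was 0.54. In these fits the lone Col-0 shoot library is assumed to vary like the other groups, so no p is given. The value thus depended on which Col-0 shoot library was kept. The part of gene span, which the difference of that pair followed, was not tested for PLT3 itself.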

How the results depend on the processing

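No count of called regulators changed by more than 1.5 times under any alternative that kept all 8 libraries: it stayed at 0 for OE-SAUR41 against Col-0 in either tissue and for the difference between tissues, and at 7 to 10 between the organs. Leaving out 1 library gave 0 in roots, 0 to 4 in shoots, 0 to 3 for the difference between tissues, 9 to 10 in Col-0 and 10 in OE-SAUR41 between the organs. Over all genes, leaving out 1 library gave 1 to 9 calls in roots, 1 to 9864 in shoots, 0 to 6888 for the difference, 7845 to 16335 between Col-0 organs and 11273 to 17240 between OE-SAUR41 organs. The highest counts in shoots and for the difference, of regulators and of all genes, came from the fit without Col-0 shoot 2. They are therefore not read as a result about the regulators. Calls of all genes in roots (1) were 3 with a pseudocount of 0.1, 3 with one of 5 and 9 with no filter. They were 14 with library weights and 8 with the root libraries alone. In shoots (4) they were 30 and 17 with these pseudocounts, 8 with no filter, 19 with a filter at 5 FPKM, 24 with quantile normalization, and 1 with no trend, library weights, the shoot libraries alone or the replicate block. Between Col-0 organs (13094) they were 8394 with TMM scaling and 8309 with the Col-0 libraries alone, and for the difference (0) they were 2 with no filter. A filter at 5 FPKM left 7 regulators to test, and the shoot libraries alone 3. The causes of the other changes were not tested.

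Signs turned for values that were not called with all 8 libraries, and for the called organ difference of SCR. That difference was -0.11 in Col-0 and -0.062 in OE-SAUR41 with TMM scaling. Leaving out 1 library in turn, log2 fold changes in roots ran from -0.0095 to 0.36 for WOX5, -0.22 to 0.048 for SHR, -0.33 to 0.080 for SMB and -0.32 to 0.16 for FEZ. In shoots they ran from -0.61 to 0.29 for SCR and -0.034 to 0.14 for SMB, and for the difference between tissues -0.018 to 0.88 for SCR, -0.39 to 0.027 for SMB and -0.29 to 0.19 for FEZ. Other scalings or pseudocounts gave, in shoots, 0.17 (quantile normalization) and 0.25 (TMM scaling) for SCR, and 0.00041 for JKD and 0.079 for FEZ (both quantile normalization). For the difference between tissues they gave -0.14 (quantile normalization) and -0.045 (TMM scaling) for JKD and 0.13 (pseudocount 0.1) for FEZ.

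Replicate numbers are shared by the groups, but nothing says that they pair the libraries. The replicate differences of the 2 genotypes correlated at 0.08 in roots and -0.005 in shoots across genes, those of the organs at -0.22 in Col-0 and -0.01 in OE-SAUR41. With the replicate block no call of a regulator changed. With the numbers of Col-0 shoots crossed, an alternative added after seeing the data, 12359 genes and 9 regulators were called between Col-0 organs.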
